A study of Mus musculus with 12 samples.

Results

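Interferon-stimulated genes are the genes that cells switch on after sensing an interferon. The 43 described here were chosen by symbol, and all 43 were found among the 55903 genes of the deposited mouse liver table. The liver RNA came as 12 RNA-seq libraries in 3 groups of 4, from a study titled on senolysis, the killing of senescent cells, switched on by light. Young control liver forms the first group. The second is titled an aged control and carries the condition aged, while its description says doxo, an abbreviation that the labels do not spell out. It is called aged/doxo here because the labels do not settle whether age, doxo or both define it. The third group was treated with a compound known only by its code, KSL0608-Se, and doxo stands in its description too. It is called treated here. Replicates may be technical, because no label ties a library to an animal, and the p-values below cover only the spread among libraries. Values are TPM, a transcript abundance scaled for gene length and to a fixed total, so levels can be compared between genes. TPM keeps no sequencing depth, and the depth behind each value is unknown.

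Type I and type III interferons bind receptors that activate the kinases Jak1 and Tyk2, and these phosphorylate transcription factors such as Stat2. A complex that holds Stat2 and Irf9 binds the interferon-stimulated response element in promoters, while the response to interferon gamma acts through the gamma-activated sequence. The products block viral entry, translation and replication, tag proteins with Isg15, attack intracellular vacuoles and feed back on the pathway. In liver, hepatocytes, Kupffer cells (the resident macrophages) and endothelial cells can all respond.

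Promoter sequence is shown first because the response element is what many of these genes share. RefSeq windows on GRCm38.p6, running from 250 bases before to 50 bases after a start site, were given for 33 of the 43 genes. The core of the element, searched as GAAA, any 2 bases and GAAA again on either strand with overlapping matches allowed, was present in 20 of the 33 genes (60.6%) and in 3.99% of the 27025 genes with a window. The gamma-activated sequence, searched as TTCNNNGAA on either strand, was present in 10 of the 33 (30.3%) and in 9.55% of all genes with a window. By role, the core was found in 6 of 7 interferon-inducible GTPases, 3 of 4 IFIT genes, 3 of 5 OAS genes, 3 of 8 other antiviral effectors and 1 of 4 transcription factors. A match is a description of letters and not a bound site. The stretches below are a selection from the 17 genes with a match before the start, and include pairs of genes that share sequence. The window of Irf7, named often below, held no match. Each is printed 5′ to 3′ on the strand of its gene, ends before the RefSeq start site, and has the matched cores in capitals, which read TTTC, 2 bases and TTTC where the match is on the other strand.
Isg15, chr4:156200860-156200911, minus strand: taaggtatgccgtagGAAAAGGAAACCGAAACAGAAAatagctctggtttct
Ifit3, chr19:34583358-34583431, plus strand: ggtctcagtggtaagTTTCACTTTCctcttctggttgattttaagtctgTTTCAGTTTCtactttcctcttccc
Ifit3b, chr19:34607754-34607827, plus strand: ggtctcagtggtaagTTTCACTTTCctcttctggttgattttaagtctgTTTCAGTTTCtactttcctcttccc
Ifit1, chr19:34640770-34640828, plus strand: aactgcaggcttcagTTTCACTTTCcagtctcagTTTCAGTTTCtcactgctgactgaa
Oas1a, chr5:120907526-120907560, minus strand: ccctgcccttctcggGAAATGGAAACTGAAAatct
Oas1g, chr5:120887614-120887646, minus strand: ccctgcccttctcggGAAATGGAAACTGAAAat
Igtp, chr11:58199507-58199546, plus strand: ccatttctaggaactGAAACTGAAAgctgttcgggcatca
Irgm2, chr11:58214898-58214937, plus strand: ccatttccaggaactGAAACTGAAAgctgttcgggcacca
Bst2, chr8:71537572-71537617, minus strand: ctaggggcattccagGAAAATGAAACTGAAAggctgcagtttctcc

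Isg15 held 3 overlapping matches in 1 run, from 78 to 57 bases before its start site. Ifit1, Ifit3 and Ifit3b each held 2, which in Ifit1 spanned 104 to 76 bases before the start. The run in Oas1a lay 20 to 5 bases before the start. The printed stretches of Ifit3 and Ifit3b were identical. In GENCODE M21 on GRCm38, Isg15 (ENSMUSG00000035692) lies on the minus strand of chromosome 4 from 156199424 to 156200818. Irf7 (ENSMUSG00000025498) lies on the minus strand of chromosome 7 from 141262706 to 141266481, and Bst2 (ENSMUSG00000046718) on the minus strand of chromosome 8 from 71534255 to 71537456. The annotation gives 42 of the 43 genes as protein coding. Close copies such as Ifit3 and Ifit3b bear on the values, because reads from shared sequence can be divided between copies. Of the 50-base words in the GENCODE M21 transcripts of Ifit3, 51.2% also occurred in those of Ifit3b, and 57.6% of those of Oas1a occurred in Oas1g. Igtp shared 11.8% of its words with Irgm2 and overlaps it on the same strand. Levels of these 3 pairs are therefore uncertain as to which copy they belong to. Whether the counting used strand is not known here, and 11 of the 43 genes overlap an exon of another gene on the opposite strand, including Irf7, Oasl1, Usp18, Adar, Eif2ak2 and Cxcl10, so their values are uncertain in the same way.

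Liver expressed most of the genes at a low level. Bst2, which encodes tetherin, a membrane protein that holds budding virions at the cell surface, had a mean of 257 TPM over the 12 libraries. Another 9 genes lay between 10 and 100 TPM, led by Ifi27, a mitochondrial protein gene, at 83.3 TPM and Iigp1, a GTPase gene, at 41.8 TPM. The means of 27 genes were between 1 and 10 TPM. Gbp7, Ifit2, Ifi44, Oas2, Mx1 and Oas3 were under 1 TPM and were left out of the test by the filter on a mean of at least 1 TPM, which 37 of the 43 and 10883 of all genes passed. Hepatocyte markers (7 genes such as Alb and Apoa1) summed to between 43097 and 79193 TPM in the libraries, so the labelled tissue was present throughout.

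**Figure D1:**
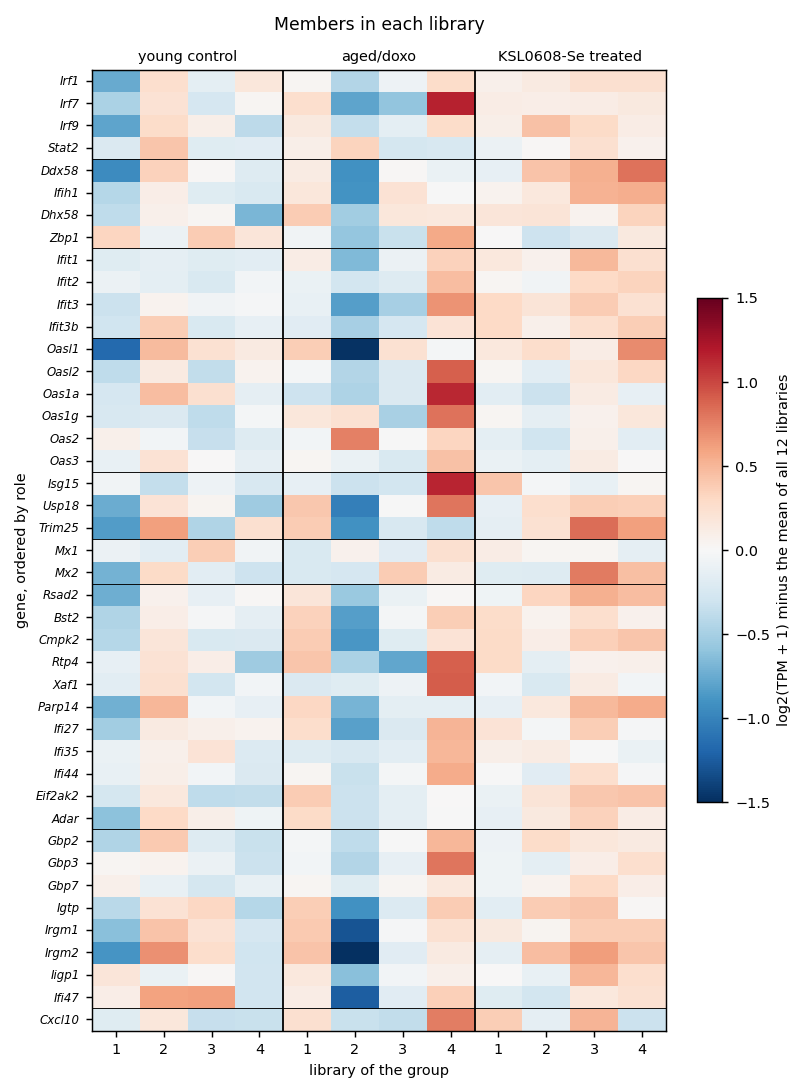
Each row is one of the 43 genes, grouped by role, and each column one of the 12 libraries. Colour is log2(TPM + 1) in the library minus the mean of all 12 libraries, from blue (lower) to red (higher). Aged/doxo library 4 is red for Irf7, Isg15, Oas1a, Xaf1 and Rtp4, and aged/doxo library 2 and young control library 1 are blue for many rows.

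Aged/doxo library 2 and young control library 1 stood apart across the whole table. Young control library 1 held the lowest of the 12 values for 21.3% of all genes tested, and aged/doxo library 2 for 54.2%. Mitochondrial transcripts made up 27.6% of its TPM, and from 8.10% to 12.4% in the remaining libraries. Among the 43 genes, 23 were lowest in aged/doxo library 2 and 8 in young control library 1. Group results are therefore given with and without these libraries where they move.

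Aged/doxo liver was compared with young control liver to ask how these genes differ with age or doxo. Of the 37 genes tested, 0 were called higher or lower at an adjusted p of 0.05 (limma with Benjamini-Hochberg adjustment over all genes; smallest adjusted p = 1), and 0 had an unadjusted p under 0.05. Calls were as rare in the whole table, at 0.00919% of all genes tested, and 1.98% had an unadjusted p under 0.05. The groups overlapped for all 43 genes, while aged/doxo values without overlap were higher for 0.689% and lower for 0.312% of all genes tested. The median log2 fold change of the 43 genes was 0.07, against -0.08 for all genes tested, and 27 of the 43 were above 0 against 35.3% of all genes tested. Fold changes here and below are on the log2(TPM + 1) scale, which understates the change of genes near or under 1 TPM. That median rested on single libraries. Without aged/doxo library 4 it was -0.06 (all genes tested -0.095), with 14 of 43 genes above 0 against 32.5% of all genes tested. It was 0.25 without aged/doxo library 2, with 38 of 43 above 0, where the median of all genes tested was 0.10 and 75.0% were above 0. It was -0.02 without young control library 1, where that of all genes tested was -0.21, and 0.15 without both libraries.

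Treated liver was compared with aged/doxo liver to ask how these genes differ after the compound. Again 0 of 37 genes were called (smallest adjusted p = 0.427, limma) and 0 had an unadjusted p under 0.05. Of all genes tested 0.00919% were called and 4.77% had an unadjusted p under 0.05. The groups overlapped for all 43 genes, while 2.77% of all genes tested were higher and 0.358% lower without overlap. The median log2 fold change of the 43 genes was 0.18 and that of all genes tested 0.30, and 35 of the 43 genes were above 0 against 81.0% of all genes tested. The whole table was thus shifted upward, and the shift depended on how libraries were scaled. Scaling by median of ratios moved the median of all genes tested to 0.03 and that of the 43 genes to -0.07, with 15 of 43 above 0. Quantile normalization gave -0.06 with 16 of 43 above 0. A total without the 50 most abundant and the mitochondrial genes gave 0.01 with 23 of 43 above 0. Of all genes tested 54.5%, 56.6% and 66.8% were above 0 under these scalings in turn. Without aged/doxo library 2 the median of the 43 genes was 0.02, and without aged/doxo library 4 it was 0.33 with 42 of 43 above 0. The medians of all genes tested were then 0.127 and 0.323, with 72.6% and 83.9% above 0.

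Treated liver was last compared with young control liver, to ask whether the treated group lies at the young level. Once more 0 of 37 genes were called (smallest adjusted p = 0.734, limma) and 0 had an unadjusted p under 0.05. All genes tested gave 0.0276% called and 3.40% with an unadjusted p under 0.05. Ifit1 and Ifit3 were higher in every treated library than in any young control library. These are 2 of 43 genes, and 3.66% of all genes tested were higher in this way. Of the 43 genes 0 were lower without overlap, against 0.358% of all genes tested. The median log2 fold change was 0.28 for the 43 genes and 0.23 for all genes tested, and 37 of 43 were above 0 against 84.0% of all genes tested. The medians fell to 0.05 and -0.01 with median-of-ratios scaling and to 0.16 and 0.09 without young control library 1. The 3 comparisons share libraries, since each group enters 2 of them.

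**Figure D2:**
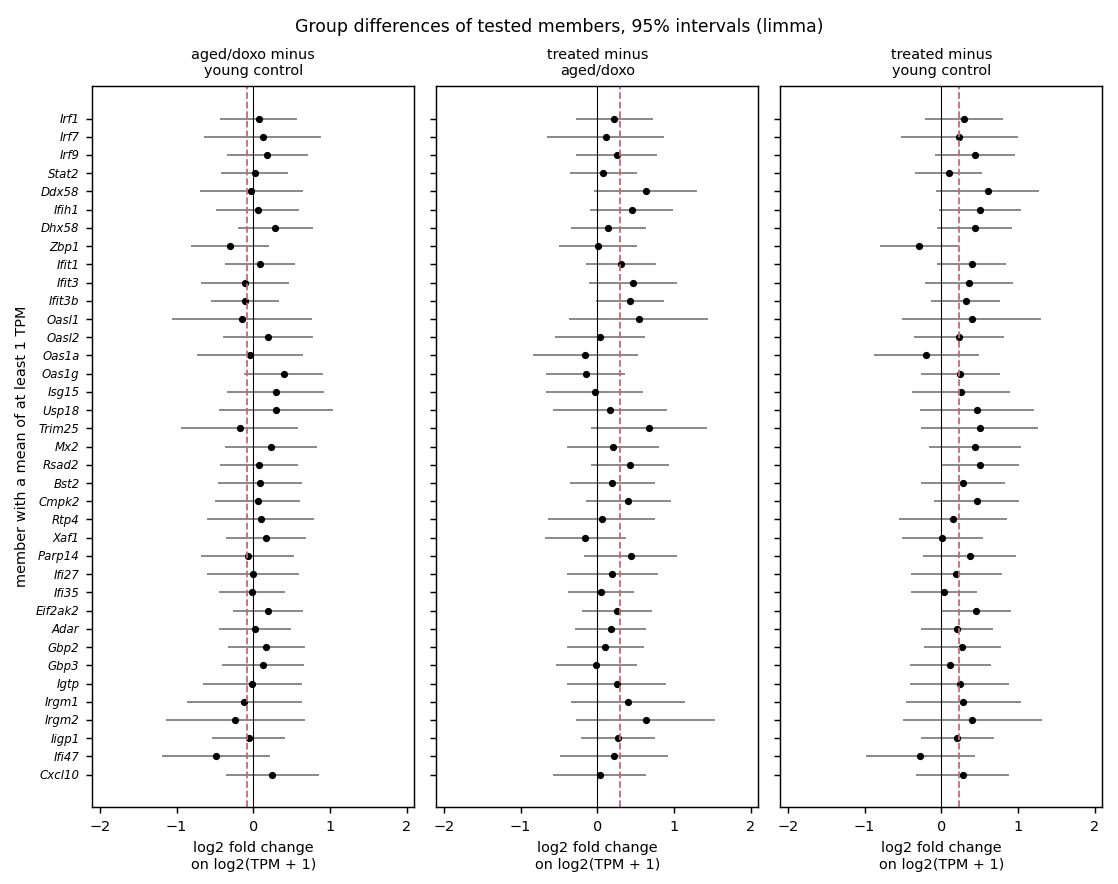
Points are log2 fold changes on log2(TPM + 1) of the 37 genes tested, in the order of their roles, with 95% intervals from limma; the solid line is 0 and the dashed line the median of all genes tested. Every interval spans 0 in all 3 comparisons, and the dashed line lies at -0.08, 0.30 and 0.23.

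The transcription factors carry the signal into the nucleus or amplify it. Irf7, which drives production of interferon alpha and is itself induced, had the highest mean of the 4 at 19.5 TPM. Irf7 was at 12.9, 21.5, 15.3 and 18.7 TPM in young control libraries 1 to 4, at 22.1, 10.2, 11.8 and 41.9 TPM in aged/doxo libraries 1 to 4, and at 19.9, 19.7, 19.9 and 20.4 TPM in treated libraries 1 to 4. Aged/doxo library 4 was above all the others, and the treated libraries differed from each other by less than 1 TPM, a coefficient of variation of 1.62%. The log2 fold change of Irf7 in aged/doxo against young control liver was 0.13 ± 0.35 (SE), and -0.26 without aged/doxo library 4. Irf9 and Stat2, which act together in the response-element complex, and Irf1, a factor strongly induced by interferon gamma, had means between 8.76 and 11.3 TPM. Their groups overlapped in every comparison, and all 4 factors had log2 fold changes between 0.02 and 0.44 in the 3 comparisons. Of all genes tested 35.3%, 81.0% and 84.0% were above 0 in the comparisons, in the order given above. In treated against aged/doxo liver the direction of the factors depended on the scaling, with 0 of 4 above 0 by median of ratios or quantiles. The rescaled total, without the 50 most abundant and the mitochondrial genes, left 2 of 4 above 0. Of all genes tested 54.5%, 56.6% and 66.8% were above 0 under these scalings in turn. In treated against young control liver 2 of 4 were above 0 by median of ratios and 3 of 4 by quantiles or the rescaled total. The shares of all genes tested were there 48.4%, 53.9% and 65.5%.

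The sensors recognise viral nucleic acid in the cytoplasm. Ddx58 encodes RIG-I, which binds short RNA with a triphosphate end, and was at 2.25, 6.96, 5.30 and 4.46 TPM in young control libraries, 5.81, 2.33, 5.30 and 4.82 TPM in aged/doxo libraries, and 4.72, 7.42, 8.01 and 9.95 TPM in treated libraries. Ifih1 encodes MDA5, which binds long double-stranded RNA, and was at 2.18, 3.61, 2.77 and 2.66 TPM in young control, 3.83, 1.30, 3.99 and 3.27 TPM in aged/doxo and 3.44, 3.79, 5.15 and 5.25 TPM in treated libraries. For both genes treated libraries 3 and 4 were above all young control and aged/doxo libraries, and treated library 1 lay among them. Log2 fold changes in treated against aged/doxo liver were 0.63 ± 0.31 (SE) for Ddx58 and 0.45 ± 0.25 for Ifih1 (limma adjusted p = 0.427 for each). Against young control liver they were 0.60 ± 0.31 and 0.50 ± 0.25 (limma adjusted p = 0.734 for each). The values against aged/doxo liver were 0.40 and 0.19 when aged/doxo library 2 was left out, and 0.36 and 0.21 with median-of-ratios scaling. Against young control liver Ddx58 was at 0.355 when young control library 1 was left out, and median-of-ratios scaling gave 0.36 for Ddx58 and 0.27 for Ifih1. Endothelial markers were also highest in treated libraries 3 and 4, with sums of 74.1 and 83.2 TPM against at most 63.6 TPM elsewhere, and their part was not tested.

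Dhx58 encodes LGP2, a relative of RIG-I that modulates MDA5. Its levels were 2.48, 3.78, 3.63 and 1.81 TPM in young control, 4.90, 2.17, 4.10 and 4.05 TPM in aged/doxo and 4.14, 4.20, 3.72 and 4.72 TPM in treated libraries. Treated libraries lay at or above most young control libraries, with a log2 fold change of 0.43 ± 0.23 (SE, limma adjusted p = 0.734), but treated library 3 fell below young control library 2. Zbp1, a sensor of left-handed nucleic acid that can trigger cell death, was at 4.27, 2.97, 4.49 and 3.79 TPM in young control, 3.06, 1.82, 2.35 and 5.25 TPM in aged/doxo and 3.23, 2.41, 2.64 and 3.68 TPM in treated libraries. Its log2 fold change against young control liver was -0.30 ± 0.24 (SE) in aged/doxo and -0.29 ± 0.24 in treated liver, and neither passed (limma adjusted p = 1 and 0.734). The former was -0.14 without aged/doxo library 2 and -0.52 without library 4.

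The IFIT proteins bind foreign 5′ RNA ends and restrain translation. The 4 genes lie near each other on chromosome 19 of GRCm38, all on the plus strand, from the start of Ifit2 at 34550694 to the end of Ifit1 at 34650009. Ifit3 was at 4.11, 5.63, 5.15 and 5.30 TPM in young control, 4.90, 2.6, 3.5 and 9.15 TPM in aged/doxo and 6.86, 6.30, 7.32 and 6.47 TPM in treated libraries. Ifit1 was at 1.36, 1.45, 1.37 and 1.40 TPM in young control, 1.89, 0.70, 1.53 and 2.40 TPM in aged/doxo and 1.98, 1.80, 2.75 and 2.16 TPM in treated libraries. Every treated library was above every young control library for these genes, while the aged/doxo libraries ran from below the young range to above it. In treated against young control liver the log2 fold change was 0.36 ± 0.26 (SE) for Ifit3, with a 95% interval of -0.21 to 0.93, and 0.40 ± 0.21 for Ifit1, with an interval of -0.06 to 0.85, and neither passed (limma adjusted p = 0.734 for each). The fold change fell to 0.111 for Ifit3 with median-of-ratios scaling and to 0.187 for Ifit1 with quantile normalization.

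Ifit3b, the close copy of Ifit3, was at 0.72, 1.72, 0.80 and 0.94 TPM in young control, 0.88, 0.49, 0.77 and 1.44 TPM in aged/doxo and 1.59, 1.22, 1.51 and 1.72 TPM in treated libraries. It had the smallest p of the 37 genes in treated against aged/doxo liver, where only aged/doxo library 4 reached into the treated range. The log2 fold change was 0.42 ± 0.21 (SE, limma unadjusted p = 0.0599, adjusted p = 0.427). Ifit2 stayed under 1 TPM in 11 libraries and was 1.01 TPM in aged/doxo library 4. All 4 IFIT genes had positive log2 fold changes in treated liver against either other group, as did 81.0% and 84.0% of all genes tested. All 4 stayed above 0 under median-of-ratios scaling, quantile normalization and the rescaled total. Of all genes tested 54.5%, 56.6% and 66.8% were then above 0 against aged/doxo liver, and 48.4%, 53.9% and 65.5% against young control liver. By median of ratios the median of the 4 IFIT genes fell from 0.37 to 0.16 against aged/doxo and from 0.34 to 0.16 against young control liver. Ifit3 and Ifit3b share sequence, so the 4 are not fully separate measurements.

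The OAS enzymes make 2′-5′ oligoadenylate, which activates the ribonuclease RNase L. Oasl1, an OAS-like protein without that activity, was the highest of the 6, at 2.08, 8.66, 7.10 and 6.59 TPM in young control, 7.97, 1.47, 7.12 and 5.81 TPM in aged/doxo and 6.75, 7.32, 6.50 and 10.3 TPM in treated libraries. Its low values are those of young control library 1 and aged/doxo library 2, which are low across the table, and the groups overlapped. Oas1g had the smallest p in aged/doxo against young control liver, at 1.16, 1.20, 0.96 and 1.5 TPM in young control, 1.87, 1.99, 0.82 and 3.5 TPM in aged/doxo and 1.61, 1.32, 1.66 and 1.88 TPM in treated libraries. Its log2 fold change was 0.40 ± 0.24 (SE, limma unadjusted p = 0.118, adjusted p = 1), 0.19 without aged/doxo library 4, and -0.08 with library weights. Oas1a, its near copy, was at 0.76, 0.59 and 0.88 TPM in aged/doxo libraries 1 to 3 and at 3.8 TPM in library 4, above the young control range of 0.84 to 2.01 TPM and the treated range of 0.75 to 1.38 TPM. Oasl2 and Oas3 were also highest of the 12 in that library, at 3.69 and 0.65 TPM.

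Isg15 is a ubiquitin-like protein that is attached to other proteins, Usp18 removes it and restrains the receptor, and Trim25 is a ubiquitin ligase that helps activate RIG-I. Isg15 was at 16.5, 13.1, 16.2 and 14.35 TPM in young control, 15.7, 13.6, 14.0 and 39.2 TPM in aged/doxo and 23.2, 16.8, 15.8 and 17.5 TPM in treated libraries. The first 3 aged/doxo libraries lay inside the young control range and the fourth was above all other libraries. The log2 fold change in aged/doxo against young control liver was 0.29, with a 95% interval of -0.34 to 0.92, and it was -0.06 without aged/doxo library 4. In treated against aged/doxo liver it was -0.03, and 0.31 without that library. Trim25 was at 3.63, 11.7, 5.04 and 8.77 TPM in young control, 9.74, 3.42, 6.02 and 5.35 TPM in aged/doxo and 6.55, 8.72, 13.8 and 11.7 TPM in treated libraries. It had the highest log2 fold change of the 43 genes in treated against aged/doxo liver, 0.68 ± 0.35 (SE, limma adjusted p = 0.427), and unlike Isg15 it was not high in aged/doxo library 4. With quantile normalization the fold change of Trim25 was 0.385, while the median of all genes tested moved from 0.30 to 0.05. Usp18 ranged from 1.20 to 6.75 TPM, both ends in the aged/doxo group.

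**Figure D3:**
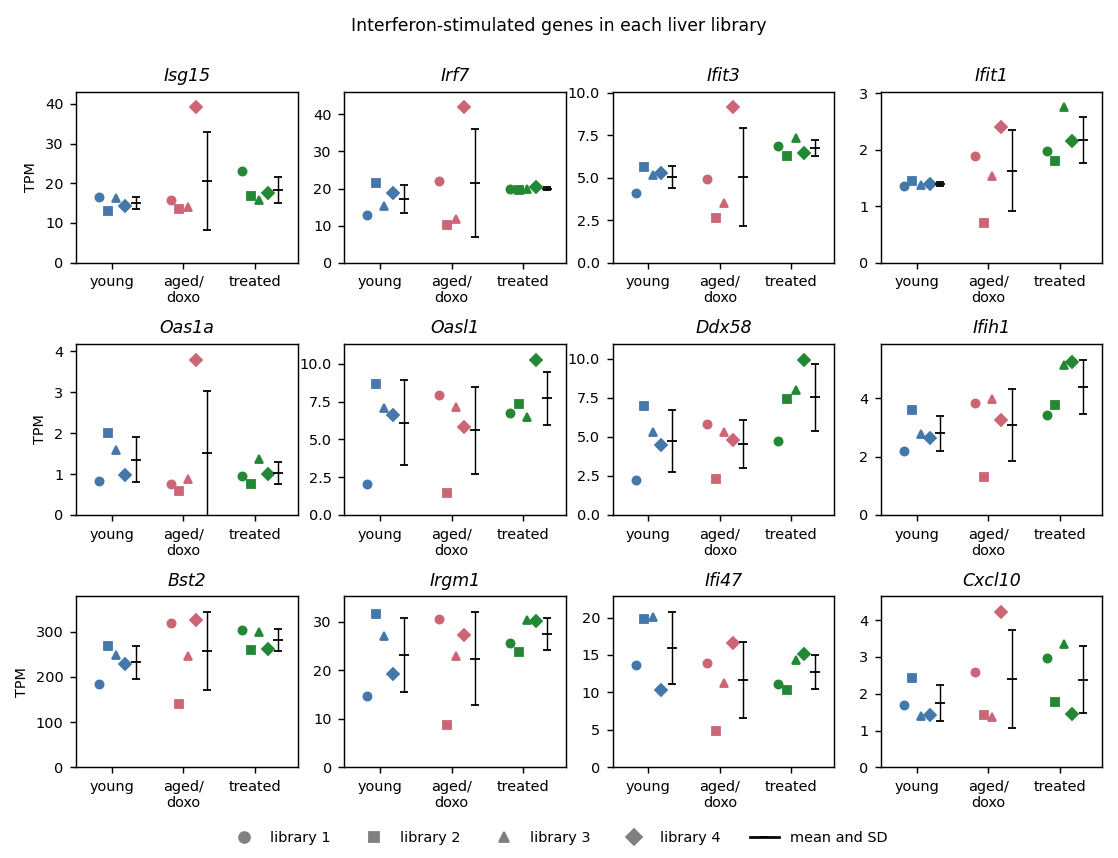
TPM of 12 genes in each library, with symbols for libraries 1 to 4 of a group and the mean with SD (n = 4) beside them; each axis starts at 0. The diamond of aged/doxo library 4 stands above the other 11 libraries for Isg15, Irf7, Ifit3, Oas1a, Bst2 and Cxcl10, but not for Oasl1, Ddx58 or Ifih1.

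The MX proteins are large GTPases that trap viral cores. Mx1 was under 1 TPM in every library. Mx2, annotated as a polymorphic pseudogene, was at 0.45, 1.90, 1.12 and 0.92 TPM in young control, 1.03, 0.99, 2.1 and 1.58 TPM in aged/doxo and 1.1, 1.07, 3.08 and 2.24 TPM in treated libraries. The groups overlapped, although treated libraries 3 and 4 were above all young control and aged/doxo libraries. These levels are too near the pseudocount of 1 for small changes to show.

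The other antiviral effectors act at different steps. Bst2 was at 184, 269, 247 and 229 TPM in young control, 318, 141, 246 and 325 TPM in aged/doxo and 303, 259, 300.04 and 262 TPM in treated libraries. Ifi27 was at 56.3, 88.9, 85.3 and 83.85 TPM in young control, 97.05, 45.7, 69.5 and 116 TPM in aged/doxo and 93.45, 79.3, 104.7 and 80.1 TPM in treated libraries. For both genes the lowest value of the 12 was in aged/doxo library 2 and the highest in aged/doxo library 4, so the aged/doxo group spanned all the others. Log2 fold changes in aged/doxo against young control liver were 0.09 ± 0.25 (SE) for Bst2 and -0.001 ± 0.28 for Ifi27. They were 0.35 and 0.25 without aged/doxo library 2 and -0.05 and -0.19 without library 4.

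Rsad2 encodes viperin, which makes a chain-terminating nucleotide, and was at 0.33, 1.31, 1.03 and 1.24 TPM in young control, 1.51, 0.51, 1.06 and 1.24 TPM in aged/doxo and 1.12, 1.76, 2.20 and 2.04 TPM in treated libraries. Eif2ak2 encodes PKR, a kinase that stops translation on sensing double-stranded RNA, and was at 1.33, 2.14, 1.15 and 1.18 TPM in young control, 2.67, 1.24, 1.54 and 1.81 TPM in aged/doxo and 1.63, 2.22, 2.73 and 2.79 TPM in treated libraries. For these genes treated libraries 2 to 4 were above all young control libraries and treated library 1 was not. They had the smallest p-values of the 37 genes in treated against young control liver, with log2 fold changes of 0.45 ± 0.21 (SE) for Eif2ak2 (limma unadjusted p = 0.0504) and 0.51 ± 0.23 for Rsad2 (unadjusted p = 0.0507). After adjustment neither passed (limma adjusted p = 0.734 for each), and Rsad2 was at 0.33 on the log2 scale without young control library 1. All 11 effectors had positive log2 fold changes in treated against young control liver, from 0.01 for Xaf1 to 0.51 for Rsad2, as did 84.0% of all genes tested. With median-of-ratios scaling 4 of 11 did, 6 of 11 after quantile normalization and 8 of 11 with the rescaled total. Of all genes tested 48.4%, 53.9% and 65.5% were above 0 under these scalings in turn. Xaf1, Rtp4, Ifi35 and Ifi44 resembled Isg15 in being highest of the 12 in aged/doxo library 4, at 11.3, 14.85, 28.0 and 1.08 TPM.

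The interferon-inducible GTPases attack vacuoles that hold parasites or bacteria and are typical targets of interferon gamma. Iigp1 was at 46.7, 38.2, 41.7 and 33.4 TPM in young control, 45.9, 26.3, 39.8 and 43.3 TPM in aged/doxo and 41.3, 38.0, 58.3 and 49.1 TPM in treated libraries. Ifi47 was at 13.7, 19.8, 20.02 and 10.3 TPM in young control, 13.9, 4.82, 11.2 and 16.6 TPM in aged/doxo and 11.1, 10.4, 14.3 and 15.1 TPM in treated libraries. The groups overlapped for both, and Ifi47 had the lowest log2 fold change of the 43 genes in aged/doxo against young control liver, -0.49 ± 0.33 (SE, limma adjusted p = 1), which was -0.15 without aged/doxo library 2. Irgm1 had a mean of 24.4 TPM, with its lowest value of 8.84 TPM in aged/doxo library 2. Of the 8 GTPases 7 had positive log2 fold changes in treated against aged/doxo liver, as did 81.0% of all genes tested. With median-of-ratios scaling or quantile normalization 2 of 8 did, and with the rescaled total 6 of 8. Of all genes tested 54.5%, 56.6% and 66.8% were above 0 under these scalings in turn. Gbp2, Gbp3 and Gbp7, guanylate-binding proteins, had means of 1.14, 1.18 and 0.83 TPM.

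Cxcl10, a chemokine that draws T cells and NK cells, was at 1.69, 2.44, 1.40 and 1.42 TPM in young control, 2.6, 1.42, 1.36 and 4.22 TPM in aged/doxo and 2.96, 1.78, 3.35 and 1.44 TPM in treated libraries. The range of each group held values of the others, and the highest value was again that of aged/doxo library 4.

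Many of the genes were high together in a single library. Aged/doxo library 4 held the highest of the 12 values for 20 of the 43 genes, against 10.9% of all genes tested. With the filter on low values these were 17 of 37. In the same library 27 of 43 genes were above the other 3 aged/doxo libraries, against 21.7% of all genes tested, and 0 were below all of them. Its median ratio to the median of the other 3 aged/doxo libraries was 1.59 over the 43 genes and 0.927 over all genes tested. Treated libraries 3 and 4 held the highest value for 8 and 6 of the 43 genes, against 15.4% and 24.3% of all genes tested. These counts were chosen after the values were seen, and they describe 1 library, so they carry no test. Under the 3 other scalings, chosen for these counts after seeing the data, aged/doxo library 4 was highest for 19 to 23 of 43 genes, against 7.25% to 8.66% of all genes tested, and above the other 3 for 27 to 29.

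**Figure D4:**
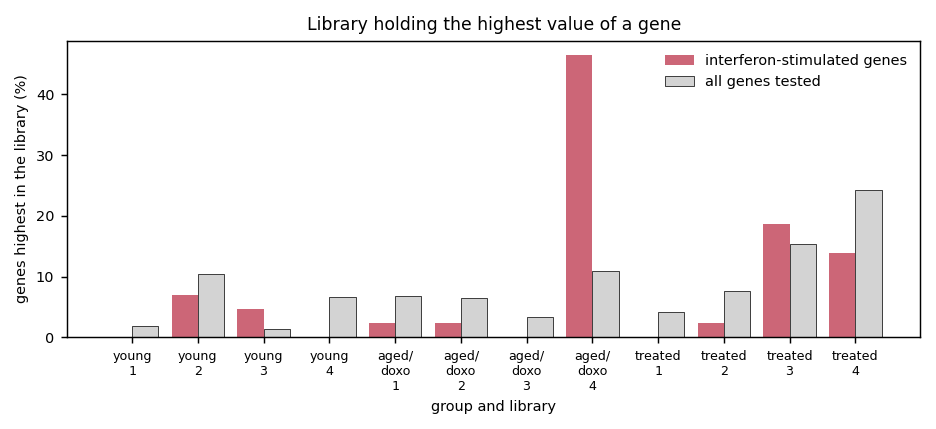
Share of genes whose highest value among the 12 libraries falls in each library, for the 43 interferon-stimulated genes (red) and all genes tested (grey); genes with a tied maximum are counted in no library. Aged/doxo library 4 holds the maximum of 20 of 43 interferon-stimulated genes and of 10.9% of all genes tested.

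By role, those above the other 3 aged/doxo libraries in library 4 were all 4 IFIT genes, 4 of 6 OAS genes, 3 of 4 transcription factors, 2 of 3 genes of the ISG15 system, 5 of 8 GTPases, 6 of 11 other effectors, 1 of 2 MX genes, 1 of 4 sensors and Cxcl10. Differences between roles were not tested. Gene length, as given in the deposited table, moved with the ratio. All 13 genes under 2000 bases were above the other 3 libraries, with a median ratio of 2.23, against 12 of 18 genes of 2000 to 3500 bases (median 1.56) and 2 of 12 genes of 3500 bases or more (median 1.15). With the filter on low values the counts were 13 of 13, 9 of 15 and 0 of 9, with medians of 2.23, 1.55 and 1.00. All genes tested, under the same filter, had medians of 1.07, 0.887 and 0.816, and 34.0%, 16.0% and 11.5% were above the other 3. Under 3500 bases the share of interferon-stimulated genes above was higher than that of all genes tested. Among longer genes the counts were too small to compare, at 0 of 9 with the filter and 2 of 12 without, against 11.5%. Their median ratio with the filter was 1.00, and that of all genes tested 0.816. What part gene length has in these ratios was not tested. Of genes with the response-element core 13 of 20 were above the other 3 libraries, and of genes with a window and no match 9 of 13.

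**Figure D5:**
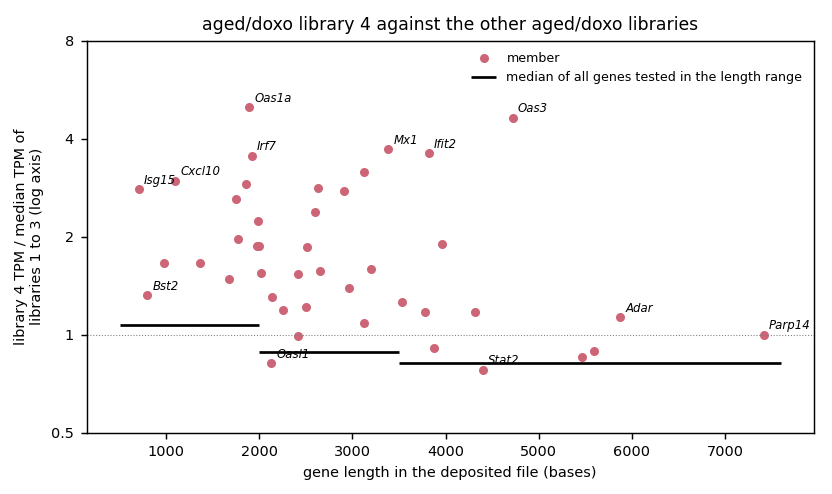
Ratio of TPM in aged/doxo library 4 to the median TPM of aged/doxo libraries 1 to 3 (log axis) against gene length in bases, for each of the 43 genes; black bars are medians of all genes tested in 3 length ranges. The genes under 2000 bases all lie above 1, and the black bars step down from 1.07 to 0.816.

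Markers of several non-parenchymal cell types were also high in aged/doxo library 4. All 11 Kupffer cell and macrophage markers were above the other 3 aged/doxo libraries there, and 10 were the highest of the 12. Their sum was 463 TPM in library 4 and at most 178 TPM in the other 3, against 177 to 314 TPM in young control and 181 to 269 TPM in treated libraries. None of these markers was at 0 in all libraries, and Clec4f, the defining Kupffer cell lectin, was at 124 TPM in library 4 and at 49.9, 20.7 and 21.2 TPM in the other 3. Of the T and NK cell markers 9 of 11 were above the other 3 libraries (sum 21.02 TPM against at most 7.76 TPM), of the monocyte markers 4 of 6 (27.4 against at most 9.02 TPM), of the endothelial markers 7 of 7 (58.7 against at most 34.8 TPM), of the stellate cell markers 5 of 6 (101.05 against at most 60.8 TPM) and of the plasmacytoid dendritic cell markers 2 of 6. Ccl5 gave 11.56 TPM of the T and NK cell sum, and it is also counted below among the other interferon-stimulated genes. That sum is thus partly a level of such a gene. Only 3 of the 11 T and NK cell markers and 2 of the 6 monocyte markers had a mean of at least 1 TPM. Hepatocyte markers were above the other 3 for 2 of 7. The remaining lists were mixed in library 4. Of the cholangiocyte markers 4 of 5 were above the other 3, and 2 were the highest of the 12. Their sum was 52.8 against at most 36.2 TPM. Of the neutrophil markers 4 of 6 were above (5.59 against at most 4.77 TPM). None of them was the highest of the 12, and the same held for the endothelial markers. Of the B cell markers 3 of 5 were above, but their sum was 3.1 against at most 3.28 TPM. Erythroid markers, of which 0 of 5 were above, summed to 2122 against at most 2568 TPM. In bulk liver more cells of a type and more RNA per cell cannot be told apart. The part of these markers, and of gene length, in the level of the interferon-stimulated genes was not tested.

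The spread within groups followed the whole table. The median coefficient of variation of the 43 genes was 32.2% in young control, 44.5% in aged/doxo and 19.2% in treated libraries, against 29.9%, 36.9% and 17.7% for all genes tested. Aged/doxo was the widest group for 30 of 43 genes, against 65.8% of all genes tested, and treated was the narrowest for 33 of 43, against 72.8%. The narrow treated group was thus seen across all genes tested.

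The rest of the interferon pathway was read from 118 further genes. The 20 ligand genes were close to silent, with 18 listed at 0 in all libraries. Ifnb1, which encodes interferon beta, was listed at 0.08 TPM in young control library 3 and at 0 elsewhere. Ifng, made by T and NK cells, was highest at 0.53 TPM in aged/doxo library 1, with 0.40 TPM in young control library 2 and at most 0.14 TPM in any other library.

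Of the 6 receptor genes all but Ifnlr1, the type III receptor chain, had a mean of at least 1 TPM, and Ifnlr1 was at most 0.04 TPM in any library. Ifnar2, a chain of the type I receptor, was at 55.2, 60.4, 57.8 and 59.7 TPM in young control, 63.6, 43.6, 54.7 and 72.4 TPM in aged/doxo and 57.8, 65.0, 66.5 and 57.8 TPM in treated libraries. Its partner Ifnar1 had a mean of 7.14 TPM, and Ifngr1 and Ifngr2, the chains of the interferon gamma receptor, had means of 5.70 and 3.08 TPM. The groups overlapped for these 4 receptor genes in each comparison and none passed the test.

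Of the 71 pathway genes tested 0 were called in any of the 3 comparisons by limma. An unadjusted p under 0.05 was found for 0, 3 and 2 (0%, 4.23% and 2.82%), all of them higher. Of all genes tested 1.98%, 4.77% and 3.40% had such a p. In aged/doxo against young control liver the smallest p-values were those of Ifi27l2b, a relative of Ifi27, at a log2 fold change of 0.55 ± 0.29 (SE), the kinase gene Ikbke at 0.35 ± 0.19, and Tbk1, the kinase that activates Irf3, at -0.38 ± 0.21. Daxx, a histone chaperone gene induced by interferon, led treated against aged/doxo liver, and no treated library overlapped an aged/doxo library. Daxx was the only 1 of the 71 that was higher in this way, and 2.77% of all genes tested were. It was at 6.89, 3.83, 4.62 and 6.38 TPM in aged/doxo and 8.16, 9.11, 8.16 and 7.42 TPM in treated libraries, with a log2 fold change of 0.54 ± 0.20 (limma unadjusted p = 0.0179, adjusted p = 0.427). The phosphatase gene Ptpn2, which restrains JAK kinases, and Tbk1 had log2 fold changes of 0.50 ± 0.19 and 0.50 ± 0.21 in that comparison.

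In treated against young control liver Ikbke had the smallest p of the pathway genes, with 2.79, 5.11, 4.41 and 4.64 TPM in young control and 5.55, 8.33, 6.12 and 6.98 TPM in treated libraries. These did not overlap, and its log2 fold change was 0.57 ± 0.19 (SE, limma unadjusted p = 0.00908, adjusted p = 0.734). Tlr3, an endosomal sensor of double-stranded RNA, followed at 0.50 ± 0.19 (limma unadjusted p = 0.0205, adjusted p = 0.734), and then Parp12 at 0.65 ± 0.41. Of the tested pathway genes 5 were higher without overlap in this comparison (Ptpn6, Ptpn2, Ikbke, Tlr3 and Herc6), and 3.66% of all genes tested were. Among the 42 other interferon-stimulated genes in the pathway list that were tested, 30 were above the other 3 aged/doxo libraries in library 4. The highest of the 12 values was there for 25 of them. Of all genes tested the shares were 21.7% and 10.9%.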

How the data were processed

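The deposited values are TPM per gene, made by the authors with fastp, HISAT and RSEM per the submitters' processing notes, which give no versions. No source used here names the build or annotation. GENCODE M21 (GRCm38) gave positions and transcripts for 55141 of the 55903 identifiers. Here log2(TPM + 1) was fitted with limma 3.58.1 in R 4.3.3, with an intensity trend and group as the only term, over all 12 libraries and the 10883 genes with a mean of at least 1 TPM. Tests were two-sided with Benjamini-Hochberg adjustment over all genes at a threshold of 0.05, and were tested on simulated data. The precision of each value is limited by 4 libraries a group, since depth is unknown. The members, gene lists and tests were chosen with earlier results of these data known. Full values are given for the 5 members of smallest p in each comparison, the 3 of highest mean TPM and the highest of each role; Ifit1 and Oas1a were added after their values were seen. From the pathway list the 3 of smallest p in each comparison, the 4 receptor chains, Ifnb1 and Ifng were named, and 1 further gene of the rule is not reported here, and genes that did not overlap were named after their values were seen. Protein sequences were not used here. Figures were drawn with matplotlib 3.10.9.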

Additional observations from a re-analysis of the deposited data

Results flagged for a closer look

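Of 129 sets of 4 libraries (43 genes in 3 groups), 6 held a library whose gap to its nearest neighbour exceeded Dixon's 95% critical value as a share of the group's range, and chance gives about 1 in 20 such sets. In aged/doxo library 4 this was a high value of Isg15 at 39.18 TPM, Oas1a at 3.8 TPM, Xaf1 at 11.29 TPM and Ifi35 at 28.02 TPM. In young control library 2 Stat2 was high at 11.86 TPM, and in young control library 1 Ifi27 was low at 56.26 TPM.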

How the results depend on the processing

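Over 24 alternatives (pseudocounts of 0.1 and 0.01, filters, scalings, the replicate block, robust and weighted fits, the compared groups alone, and leaving out libraries), 0 of the interferon-stimulated genes were called in any comparison. Library weights gave the smallest adjusted p, 0.0546 in treated against aged/doxo liver (limma), with 16 genes at an unadjusted p under 0.05. The whole table moved as well, with 77 genes called in place of 1 and 74.8% of all genes tested above 0. The 16 were not set against the share of all genes tested at that p under these weights. They are thus not read as particular to the interferon-stimulated genes. With these weights 1 pathway gene, Daxx, was called in that comparison (log2 fold change 0.66, limma adjusted p = 0.049). The medians of the 43 genes ranged from -0.06 to 0.25 in aged/doxo against young control, -0.07 to 0.33 in treated against aged/doxo and 0.05 to 0.40 in treated against young control liver. Leaving out each of the 12 libraries gave -0.06 to 0.25, 0.02 to 0.33 and 0.16 to 0.35. The replicate block changed no call of the interferon-stimulated or pathway genes, with 0 members called and medians of 0.07, 0.18 and 0.28. Libraries with the same replicate number did not deviate together (correlations of deviations from -0.58 to 0.393), so the numbers were not read as pairs. Over all genes tested, library weights called 74, 77 and 29 genes in place of 1, 1 and 3. Other alternatives gave at most 4, 2 and 6, and the replicate block 0, 0 and 1. Depth is unknown, and 27 of the 43 genes had means of 1 to 10 TPM and 6 less, where the pseudocount of 1 compresses fold changes; the 6 were not tested except without the filter.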
